A study of Homo sapiens with 4 samples.

Results

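Aminoacyl-tRNA synthetases are the enzymes that join each amino acid to its transfer RNA, the charging step on which all translation depends. Here 36 of their genes, 20 for cytosolic and 16 for mitochondrial enzymes, were followed in the human breast cancer cell line MDA-MB-231. Genes were taken by symbol from the deposited transcript table, rows annotated as protein-coding were kept, and symbols that end in 2 were read as mitochondrial. Such rows were found for 34 of the 36 genes (19 cytosolic, 15 mitochondrial) among 12120 genes with a protein-coding row. QARS and VARS2, for cytosolic glutamine and mitochondrial valine, had none and were given no level.

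MDA-MB-231 is an established triple-negative line with mesenchymal features. Cells received either the solvent DMSO or 10 µM KH-3, a small molecule that the study examined as an inhibitor of the RNA-binding protein HuR, for 24 h, and 2 mRNA libraries per condition were sequenced. The value used here is the authors' mean normalized read count of each transcript, averaged over libraries. The sources used here do not name the libraries in the mean, and the methods also describe a group with a lower dose of KH-3. The value is not given separately for control and treated cells. Therefore the effect of KH-3 on these genes was not analysed here, and no value carries a replicate error or a test. Levels between genes are compared as mean normalized reads per kb of transcript, summed over the protein-coding transcripts of a gene, and are descriptions of these libraries. The table lists 43596 transcripts with a mean normalized read count of 7.34 or more, which sum to 12267196, and protein-coding synthetase transcripts hold 0.501% of that sum. The depth of each library is unknown. Of the markers of the line, VIM, CAV1, EGFR and CD44 had levels of 3786, 2599, 1243 and 427 reads per kb, while ESR1, PGR and CDH1 were not listed, and the luminal factor GATA3 and the epithelial adhesion gene EPCAM were at 29.5 and 43.3.

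The family is split by compartment and by fold. Cytosolic enzymes charge the tRNAs used by cytosolic ribosomes, and a separate nuclear-encoded set is imported into mitochondria to serve the small mitochondrial genome. GARS and KARS each supply both compartments from a single gene. Class I and class II enzymes have unrelated catalytic folds, and several cytosolic enzymes are held in a multisynthetase complex by scaffold proteins.

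KARS is the case in which the transcript table itself separates the compartments. Its cytosolic and mitochondrial lysyl-tRNA synthetases start in different exons of alternatively spliced transcripts, on the minus strand of chromosome 16 (hg38, GENCODE release 44). The transcript KARS-001 (ENST00000302445) skips a 180-base exon at chr16:75644283-75644462 and starts translation in exon 1, at chr16:75647610-75647639, for a protein of 597 codons. The transcript KARS-002 (ENST00000319410) includes that exon and starts in it, at chr16:75644399-75644428, for a protein of 625 codons, the form known to go to mitochondria. The first 30 coding bases of each are shown to mark where the forms part, with the start codon in capitals.
KARS-001: ATGgcggccgtgcaggcggccgaggtgaaa
KARS-002: ATGttgacgcaagctgctgtaaggcttgtt
The cytosolic form had 3825 mean normalized reads and the mitochondrial form 201, a ratio of 19.0. Per kb of transcript the ratio was 22.9, and the mitochondrial form made up 3.66% of the KARS level. A further short transcript, KARS-009, had 129 reads over 459 bases, or 281 per kb against 83.2 for KARS-002, and was assigned to neither form. KARS-004, a nonsense-mediated decay transcript outside the KARS level, had 297 reads. Reads from exons common to these transcripts were divided among them by an estimate, and the share of the mitochondrial form depends on that estimate.

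Cytosolic synthetase genes were expressed at a higher level than mitochondrial ones. Their median was 843 reads per kb against 144, a ratio of 5.86, and the median over all genes in the table was 117. The cytosolic genes spanned 75.4 (HARS) to 3636 (SARS), and the mitochondrial genes 23.2 (SARS2) to 1289 (IARS2), so the ranges overlapped. Of the summed synthetase level 84.7% was cytosolic. Among all genes with a protein-coding row, the median percentile was 91.9 for the cytosolic and 55.5 for the mitochondrial genes. In the top 10% of all genes were 10 of the 19 cytosolic genes and 1 of the 15 mitochondrial genes, IARS2.

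**Figure D1:**
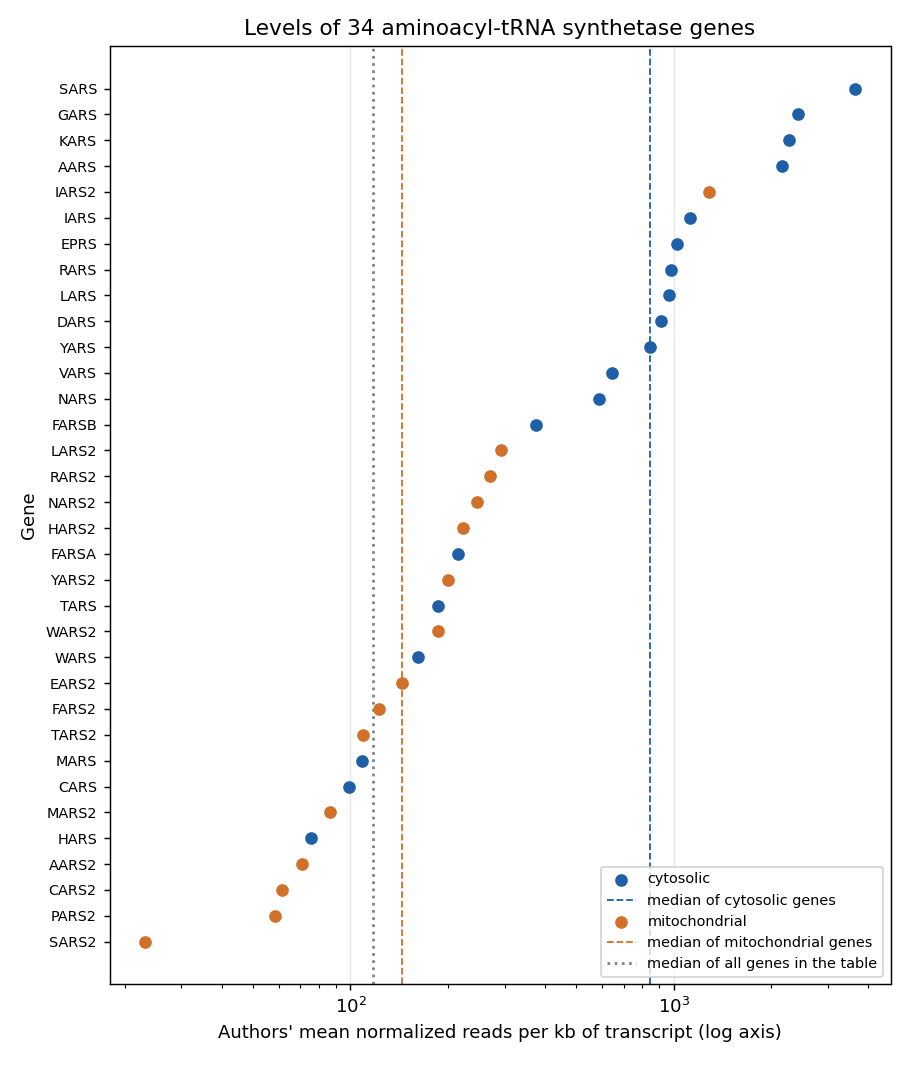
Level of each of the 34 synthetase genes (authors' mean normalized reads per kb of transcript, log axis), with points coloured by compartment and vertical lines at the medians of the cytosolic, mitochondrial and all genes. The cytosolic points reach from 75.4 to 3636 and the mitochondrial points from 23.2 to 1289, with IARS2 apart from the other mitochondrial genes.

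**Figure D2:**
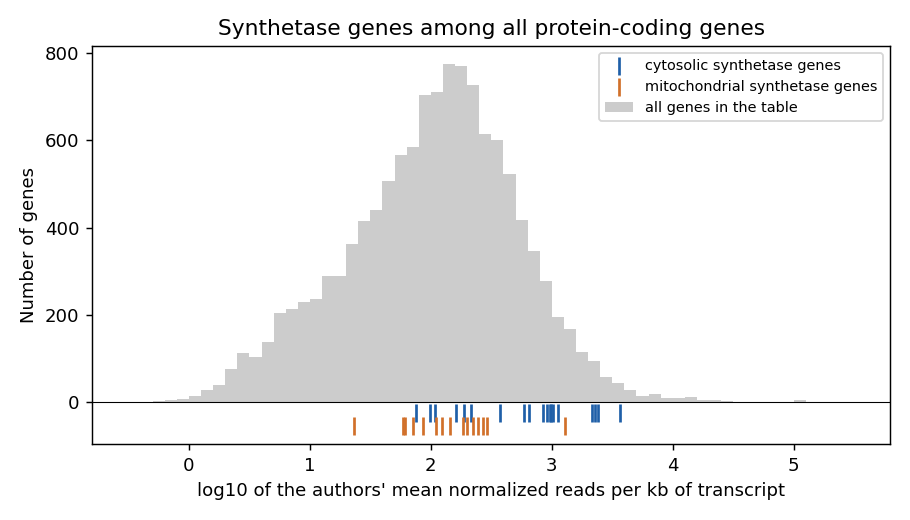
Histogram of the level of all 12120 genes with a protein-coding transcript (log10 of authors' mean normalized reads per kb), with the synthetase genes as ticks under the axis. Ticks of the cytosolic genes lie mostly at the upper end (median percentile 91.9) and those of the mitochondrial genes around the middle (median percentile 55.5).

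A small set of cytosolic genes carried much of the total. SARS, the seryl-tRNA synthetase on chromosome 1 (hg38, 109213918 to 109238182, plus strand), was the highest at 3636 reads per kb. GARS, which charges glycine in both compartments, had 2417, KARS had 2272, and AARS, the alanyl enzyme, had 2155. These 4 genes held 47.3% of the summed level of all 34 and were the only cytosolic genes above IARS2. That limit depends on the transcripts counted. When types other than protein-coding were added, VARS, NARS, IARS, YARS, TARS and LARS, from 2045 down to 1362, were also above IARS2 at 1354. GARS was represented by 1 protein-coding transcript, GARS-001, with 6366 mean normalized reads. Its cytosolic and mitochondrial proteins arise from alternative start codons of the same mRNA, and a transcript table cannot separate them.

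A second tier lay between 588 and 1123 reads per kb. It held the isoleucyl enzyme IARS at 1123, the bifunctional glutamyl-prolyl enzyme EPRS at 1020, the arginyl enzyme RARS at 983, the leucyl enzyme LARS at 965 and the aspartyl enzyme DARS at 916. The tyrosyl enzyme YARS followed at 843, the valyl enzyme VARS at 645 and the asparaginyl enzyme NARS at 588. All 8 genes of this tier lay above the 87th percentile of all genes, the lowest being NARS at 87.4.

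The remaining cytosolic genes were lower. FARSB and FARSA encode the β and α subunits of the phenylalanyl enzyme, a tetramer with equal numbers of both, and had 375 and 215 reads per kb, a ratio of 1.75. The threonyl enzyme TARS had 187, the tryptophanyl enzyme WARS, known as an interferon-induced gene, had 162, and the methionyl enzyme MARS had 108. The cysteinyl enzyme CARS was at 98.8 and the histidyl enzyme HARS at 75.4. MARS, CARS and HARS were below the mitochondrial median of 144 and below the median of all genes.

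Among mitochondrial genes IARS2, the isoleucyl enzyme, stood apart with 1289 reads per kb and 38.1% of the summed mitochondrial level. Next came LARS2 at 292, RARS2 at 269, NARS2 at 246, HARS2 at 223, YARS2 at 200 and WARS2 at 186. EARS2 had 144. This enzyme charges glutamate and also loads glutamate on the mitochondrial glutamine tRNA. The other 7 genes were between 23.2 and 123 reads per kb, namely FARS2 at 123, TARS2 at 109, MARS2 at 86.4, AARS2 at 70.6, CARS2 at 61.3, PARS2 at 58.3 and SARS2 at 23.2. Without IARS2 the highest and lowest mitochondrial genes differed by 12.6-fold, against 55.7-fold with it and 48.2-fold among the cytosolic genes.

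When enzymes for the same amino acid were set side by side, the cytosolic gene was higher in 13 of 16 pairs. The pairs comprise 12 with matching names, FARSA and FARSB each with FARS2, and EPRS with both EARS2 and PARS2. The widest gap was that of serine, where SARS was 157-fold above SARS2. Alanine followed with AARS at 30.5-fold over AARS2, and EPRS was 17.5-fold over PARS2 and 7.09-fold over EARS2. In the other pairs with a higher cytosolic gene the ratio ran from 1.25 for MARS over MARS2 to 4.21 for YARS over YARS2. With transcripts of all types these ratios ran from 1.815 for FARSA over FARS2 to 12.9 for TARS over TARS2. Among them MARS over MARS2 was 6.11 and NARS over NARS2 5.505, while YARS over YARS2 fell to 2.62. The leading transcripts of YARS and YARS2 had 355 and 200 reads per kb. The direction for methionine was not stable, since MARS had 144 mean normalized reads and MARS2 261 without length scaling, and their leading transcripts had 31.8 and 86.4 reads per kb. SARS and SARS2 thus marked the top and the bottom of the 34 levels. With transcripts of all types SARS stayed the highest at 4747. SARS2 was then at 121 and no longer the lowest, with PARS2 at 58.3 and AARS2 at 83.5 among the genes below it.

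The mitochondrial gene was higher for histidine, isoleucine and tryptophan. HARS2 was 2.95-fold above HARS, whereas IARS2 and WARS2 exceeded IARS and WARS by only 1.15-fold each. With transcripts of all types counted, HARS2 was 1.20-fold above HARS, and the direction for isoleucine turned, with IARS 1.21-fold above IARS2. IARS was also higher without length scaling, with 4996 against 4589 reads. HARS and HARS2 lie head to head on chromosome 5, with starts 107 bases apart and overlapping 5′ ends in GENCODE release 44 (HARS, minus strand, 140673035 to 140691537; HARS2, plus strand, 140691430 to 140699305). Whether strand was used in counting is not given in the sources used here, and without it reads from the overlap cannot be told apart. IARS2 also has a synthetase neighbour, since its start is 47602 bases from that of EPRS on chromosome 1, on the opposite strand.

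**Figure D3:**
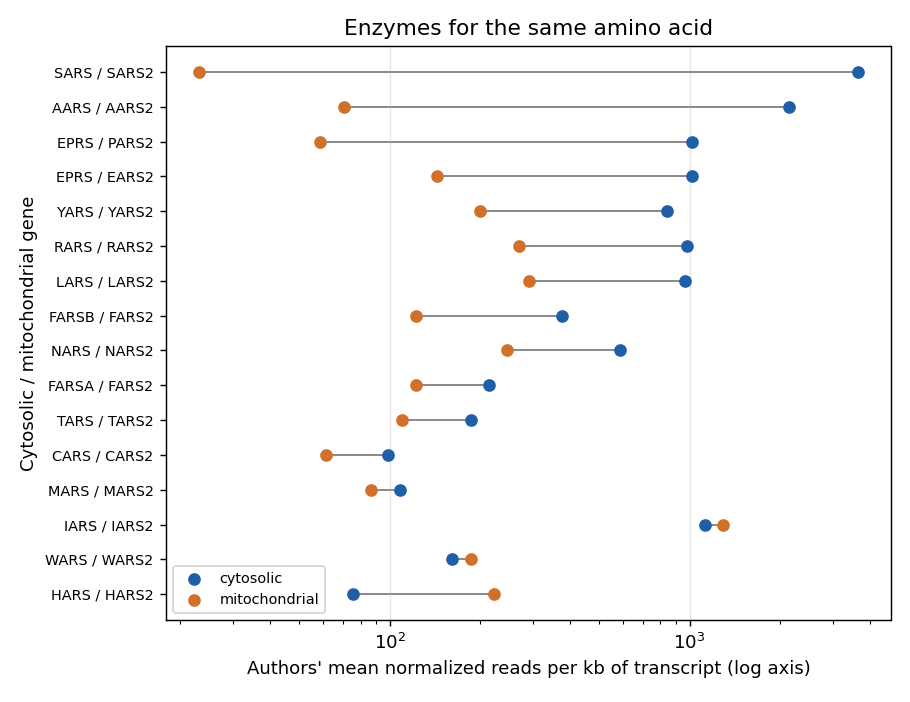
Levels of cytosolic and mitochondrial enzymes for the same amino acid (authors' mean normalized reads per kb of transcript, log axis), with each of 16 pairs on a line of its own, ordered by the ratio. The mitochondrial point lies to the right in 3 pairs, HARS/HARS2, WARS/WARS2 and IARS/IARS2, and the gap is widest for SARS/SARS2.

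Members of the multisynthetase complex were mostly high. Of its enzymes EPRS, IARS, LARS, RARS, KARS, DARS and MARS, 6 were in the top 10% of all genes, and MARS at 108 was not. QARS, also an enzyme of the complex, had no protein-coding row and is not in these counts. The median of these 7 was 983 reads per kb, against 482 for the 12 cytosolic genes outside the complex. Those 12 ranged from 75.4 to 3636. The order of these medians depends on the transcripts counted. With all types the median of the 7 was 1256 (EPRS), and that of the 12 lay between 1416 (TARS) and 1426 (YARS). The scaffolds AIMP1, AIMP2 and EEF1E1 had 620, 527 and 978, within the range of the enzymes. Cytosolic class I and class II genes had nearly equal medians, 744 and 752 reads per kb. The class II genes reached 3636 (SARS) and the class I genes only 1123 (IARS). EPRS, which has both classes, is in neither group. With all types the class I median of the same genes lay between 1100 (RARS) and 1362 (LARS). The class II median then lay between 1416 (TARS) and 1652 (NARS). For mitochondrial genes the medians were 193 for class I and 109 for class II.

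Genes that act around the synthetases were read from a fixed list. In mitochondria the amidotransferase of GATB, GATC and QRSL1 completes the glutamine tRNA that EARS2 loads with glutamate, and MTFMT formylates the initiator methionine. Their levels were 62.9, 207, 89.0 and 40.1 reads per kb, in the range of the mitochondrial synthetases. Elongation factors that carry charged tRNA to the ribosome, taken with their exchange factors from both compartments, had a median of 539 reads per kb (EEF1A1). This lay above the mitochondrial synthetase median of 144 and below the cytosolic one of 843. With transcripts of all types the median of the factors was 882 (EEF1B2), and the synthetase medians were 154 and 1309. TUFM, the mitochondrial carrier, had 836 and its exchange factor TSFM had 148. On the cytosolic side the carriers EEF1A2 and EEF1A1 had 1224 and 539. The exchange factor subunits EEF1D and EEF1B2 had 452 and 209, and EEF1G reached 10475. Reads that match both EEF1A1 and EEF1A2 cannot be told apart here, so their order is uncertain, as is the median of 539 that EEF1A1 sets. Of the proofreading enzymes DTD1 had 628 and DTD2 137, and AARSD1 had no protein-coding row.

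The number of transcripts behind a gene level varied. The 34 genes had 69 protein-coding transcripts, with 12 genes on 1 transcript and at most 4 in a gene. Of the 22 genes with 2 or more, 10 had over 90% of their protein-coding reads in the leading transcript. IARS and HARS had under 50% in it, and the other 10 lay in between. IARS was divided over 4 long transcripts with 1985, 1562, 991 and 457 mean normalized reads, and HARS over HARS-001 with 117, HARS-003 with 110 and HARS-012 with 15.7. LARS was also divided, with 1996, 1033 and 474 reads in 3 transcripts. YARS had 1149 reads in YARS-001 and 570 in YARS-201, which is only 1167 bases long. These shares are of reads, and short transcripts weigh more in a level per kb. Per kb YARS-201 had 489 against 355 for YARS-001, and MARS-033 had 76.5 against 31.8 for MARS-003. In DARS, DARS-009 had 263 per kb against 653 for the leading DARS-001.

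Part of the reads of these genes was assigned to transcripts of other types. Besides the protein-coding transcripts the table lists 50 retained-intron, 23 processed and 13 nonsense-mediated decay transcripts of the 36 genes, in 27 of them. In 10 of the 34 genes these took more than 25% of the reads (29.4%, against 20.1% of all genes), and 7 of the 10 were cytosolic. The share was 70.4% for MARS, 65.2% for TARS, 45.5% for CARS, 42.6% for HARS, 36.4% for NARS, 32.1% for YARS and 30.1% for VARS. It was 59.0% for SARS2, 53.9% for CARS2 and 35.9% for YARS2. By contrast it was 4.7% or less in AARS, GARS, EPRS and IARS and 0.6% in IARS2. Of the 5 lowest cytosolic genes HARS, CARS, MARS, WARS and TARS, WARS had 0.0% and the other 4 had the largest shares among cytosolic genes. Reads in other types do not enter the levels above, so a large share lowers a level by construction.

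The level of these genes depends on which transcripts are counted. With all types included TARS went from 187 to 1416 reads per kb, mainly through TARS-013, a retained-intron transcript of 760 bases with 774 reads. VARS went from 645 to 2045, NARS from 588 to 1652 and YARS from 843 to 1426, above the range of 588 to 1123 in which they stood. MARS went from 108 to 528, HARS from 75.4 to 208 and CARS from 98.8 to 203. Of the mitochondrial genes YARS2 went from 200 to 545, CARS2 from 61.3 to 92.7 and SARS2 from 23.2 to 121, which brought the ratio of SARS to SARS2 to 39.3. WARS has protein-coding transcripts only and stayed at 162. QARS was listed with 3 retained-intron transcripts of 16.9, 11.5 and 10.9 reads, and VARS2 with 1 of 93.1 reads over 6054 bases.

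**Figure D4:**
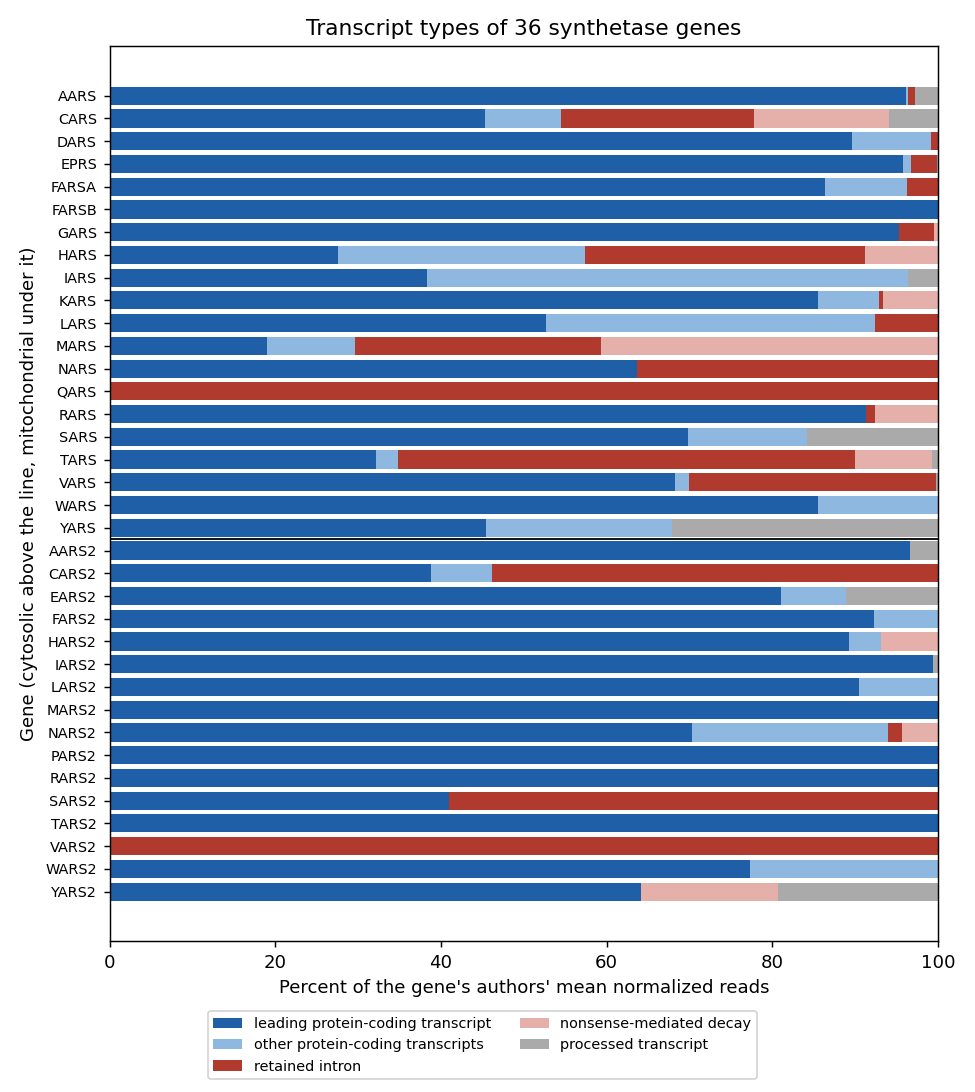
Share of the authors' mean normalized reads of each of the 36 genes in its leading protein-coding transcript, other protein-coding transcripts and transcripts of other types (percent, bars sum to 100). MARS, TARS, SARS2 and CARS2 have most of their reads in other types, QARS and VARS2 all of them, and GARS, AARS, EPRS and IARS2 nearly all in protein-coding transcripts.

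A sequence feature shared by several cytosolic genes lies near their starts. The motif TGATGCAA is a form of the C/EBP-ATF response element, which factors such as ATF4 bind when amino acids are short. It was searched on both strands from 250 bases before to 50 after each RefSeq gene start (GRCh38.p14). A promoter was found for 30 of the 36 genes, 16 cytosolic and 14 mitochondrial. The motif was present in 6 cytosolic and 0 mitochondrial genes, and in 0.866% of all 35116 promoters in the table. The 30 bases around each match are shown in the direction of the gene, with the match in capitals. NARS carries the motif as written, and the other genes carry its reverse complement.
AARS: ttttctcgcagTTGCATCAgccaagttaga
CARS: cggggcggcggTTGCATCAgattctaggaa
IARS: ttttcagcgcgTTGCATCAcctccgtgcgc
MARS: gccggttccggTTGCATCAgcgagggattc
NARS: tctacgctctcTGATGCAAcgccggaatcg
TARS: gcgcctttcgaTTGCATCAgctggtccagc
These windows are at chr16:70289675-70289704, chr11:3057407-3057436, chr9:92293692-92293721, chr12:57488053-57488082, chr18:57621804-57621833 and chr5:33440956-33440985. In AARS the match starts 187 bases before the gene start, and in the other 5 it starts between 13 bases before and 14 bases after it. The 6 genes with the motif had levels from 98.8 (CARS) to 2155 (AARS) with a median of 388, and the 9 other cytosolic genes with a promoter and a level had 75.4 to 3636 with a median of 983. The ranges overlapped, and the order of the medians depends on the transcripts counted. Among the 6 genes CARS, MARS, NARS and TARS have over 25% of their reads in other types, and with all types the median was 1529 for the 6 genes and 1100 for the 9 others. A match is a description of these letters and no evidence of binding.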

How the data were processed

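RNA-seq libraries of MDA-MB-231 cells (DMSO or 10 µM KH-3 for 24 h, 2 per condition by the sample labels) were aligned by the authors to the GENCODE release 24 transcript set (STAR, default parameters), reads per transcript were estimated with eXpress, and DESeq2 was used for normalization and comparison. Tool versions are not given in the sources used here. The deposited signal is the authors' mean normalized read count per transcript, not scaled to length. The libraries behind the mean are not named in the sources used here. The table also holds the authors' own comparison of KH-3 and DMSO (log2 fold change, p-value and q-value), which were not used. Without values per library, the comparison of KH-3 with DMSO planned on counts could not be made, and depth and replicate error are unknown.

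Each count was divided by the transcript length in the table, in kb, and summed over the protein-coding transcripts of a gene. Percentiles are mid-ranks over all 12120 genes. All 36 genes, a list of related genes and the markers of the line are named, except 1 gene of the list that is not reported here. The members and lists were chosen with earlier results of these data known. Gene positions and the KARS exons are from hg38 and GENCODE release 44, which is not the authors' release, and promoters from RefSeq on GRCh38.p14, matched through Ensembl IDs. A check of protein sequences was planned and not run. Alternatives covered length scaling, transcript types, the leading transcript alone, read minimums of 20 and 50, and the omission of genes. The computation was tested on simulated data for 500 genes. Python 3.11.15, numpy 2.4.6, pandas 2.3.3 and matplotlib 3.10.9 were used.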

Additional observations from a re-analysis of the deposited data

How the results depend on the processing

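No alternative turned the direction of the cytosolic to mitochondrial ratio of medians, 5.86. Without length scaling it was 4.29, the cytosolic share of the summed level was 83.5%, and the median percentiles were 89.3 (cytosolic) and 54.7 (mitochondrial). Counting transcripts of all types also gave QARS and VARS2 a level (20 cytosolic and 16 mitochondrial genes) and added the pair of VARS with VARS2. In that larger set the same values were 8.52, 87.0%, 94.6 and 57.6, and 15 of 17 pairs had the higher cytosolic gene. With the leading transcript alone they were 4.08, 83.3%, 89.96 and 61.8, with 12 of 16 pairs. With a minimum of 20 reads the ratio did not move, the share was 85.0% and the percentiles were 91.2 and 52.1. With a minimum of 50 reads the values were 5.11, 85.2%, 90.2 and 51.8. Without GARS and KARS the ratio was 4.48, the share 80.7% and the cytosolic percentile 88.6, and without EPRS they were 5.17, 84.0% and 90.3. An alternative chosen after seeing the data left out the genes with over 25% of their reads in other transcript types. It gave 6.07, 84.0%, 93.5 and 59.1, with 7 of 9 pairs. Levels with and without the promoter motif under all types, and the direction of single pairs, were also added after seeing the data. No paired analysis was possible because the table has no values per library. For the same reason the alternatives planned for KH-3 against DMSO (DESeq2, the replicate block and leaving out each replicate) were not run. The levels have no replicate error, so neighbours in the order of genes cannot be told apart, and reads shared by transcripts of a gene were divided by an estimate.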

Other observations

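Transcripts of other types also took a large share of the reads in some genes around the synthetases. The share was 69.2% for MTFMT, 66.3% for EEF1B2 and 56.9% for TUFM, and 0.1% for EEF1G. With all types counted TUFM was at 3910 reads per kb and EEF1B2 at 882. The median share over all genes was 1.20%, and it was 7.68% for the cytosolic and 0.626% for the mitochondrial synthetase genes.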
